A study of Mus musculus with 6 samples.

Results

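The genes described here are 10 components of bone morphogenetic protein (BMP) signalling, namely the ligand genes Bmp2, Bmp4 and Bmp7, the receptor genes Bmpr1a and Bmpr2, the signal transducer genes Smad1 and Smad5, the inhibitory genes Smad6 and Smad7, and the antagonist gene Nog. Members were found by gene symbol in the annotation of the array. It named 9 probes for 6 of the 10 genes, out of 19419 probes with 1 symbol for 13165 genes. Bmp4, Bmpr1a and Smad1 had 2 probes each, and Bmp7, Smad5 and Smad6 had 1 each. No probe was named for Bmp2, Bmpr2, Smad7 or Nog, which were not analysed here.

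The cells were J1, a line of mouse embryonic stem cells, on 1-colour Illumina Mouse-6 bead arrays of total RNA. There were 6 groups of 1 array each. Noggin cultures received the BMP antagonist Noggin as a protein at 150 ng/ml and mock cultures a mock treatment, and each was sampled at day 0, day 2 and day 4. Per the design text, Noggin was given to the adherent cells for 3 days, the cells were then put in suspension without leukaemia inhibitory factor to form embryoid bodies, and Noggin was taken away on the second day of embryoid body culture. The day 4 Noggin array therefore came from cells after withdrawal. The labels do not say whether the day 0 Noggin array precedes or follows the 3 days of treatment, and the treatment field of the mock arrays repeats the Noggin entry, so the groups rest on the source name of each sample. Day 0 cells also differed from both later days in culture form and in leukaemia inhibitory factor. Time and culture form cannot be told apart in contrasts with day 0.

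BMP ligands are secreted proteins that bring type I and type II receptor kinases together. Smad1 and Smad5 proteins are phosphorylated by the type I receptor, join Smad4 and move to the nucleus, where they activate genes such as the Id genes and the feedback inhibitor Smad6. Noggin binds the ligands outside the cell and keeps them from their receptors. In mouse embryonic stem cells BMP4 helps leukaemia inhibitory factor to hold the undifferentiated state, and in the early embryo it is needed for mesoderm.

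The promoter windows of the 3 members with the largest Noggin and mock differences at day 4 are shown to place the genes and the SMAD-type motifs near their start sites. Each window holds 250 bases before the annotated start site and the first 10 bases from it, read 5′ to 3′ on the strand of the gene, from RefSeq on GRCm38.p6.
Smad6, chr9:64022050-64022309, minus strand: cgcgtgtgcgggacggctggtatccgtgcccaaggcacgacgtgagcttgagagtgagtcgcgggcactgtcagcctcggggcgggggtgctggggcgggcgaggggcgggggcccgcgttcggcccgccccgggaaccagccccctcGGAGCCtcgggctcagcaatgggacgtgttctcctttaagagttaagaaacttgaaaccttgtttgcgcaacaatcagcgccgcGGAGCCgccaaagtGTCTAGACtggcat
Bmp4, chr14:46390660-46390919, minus strand: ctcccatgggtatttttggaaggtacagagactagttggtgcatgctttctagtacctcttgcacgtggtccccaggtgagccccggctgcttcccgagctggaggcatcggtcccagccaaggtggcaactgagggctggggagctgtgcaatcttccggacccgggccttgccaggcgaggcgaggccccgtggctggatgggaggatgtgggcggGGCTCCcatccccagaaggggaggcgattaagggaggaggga
Smad1, chr8:79399419-79399678, minus strand: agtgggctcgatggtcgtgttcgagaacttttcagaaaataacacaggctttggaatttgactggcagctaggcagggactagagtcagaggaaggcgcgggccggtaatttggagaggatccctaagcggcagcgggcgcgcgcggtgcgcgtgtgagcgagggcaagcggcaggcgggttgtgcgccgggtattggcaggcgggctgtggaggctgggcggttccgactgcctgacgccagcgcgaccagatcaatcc
Capitals mark 3 motifs that were searched on both strands and chosen with these windows in view. They were the palindromic SMAD-binding element GTCTAGAC and the GC-rich sites GGCGCC and GGAGCC described for BMP-regulated SMADs, and no motif overlapped another in these windows. In Smad6, GTCTAGAC began 4 bases before the start site, and GGAGCC stood at positions -102 and -18 from it. The Bmp4 window held 1 GGAGCC site, on the opposite strand at position -32, and the Smad1 window held none of the 3 motifs. Over 32851 mouse promoter windows of the same length, GTCTAGAC was found in 0.177%, GGCGCC in 9.96% and GGAGCC in 26.8%. Windows of 6 of the 10 genes were searched, and those of Bmp2, Bmp7, Smad7 and Nog were not. Whether these genes hold GTCTAGAC is not known here. The windows of Bmpr1a, Bmpr2 and Smad5 did not hold GTCTAGAC. They did hold GGCGCC, at -198 in Bmpr1a, at -105 in Bmpr2 and at -19 from start site 2 of Smad5. Start site 3 of Smad5 had GGAGCC at -117. These matches are descriptions of letters and were not measured as binding.

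Each array gave a raw signal for 27496 probes, with lowest signals of 91.4 to 101.4 and medians of 152 to 176.55. A probe at or below the median cannot be told from background here, for lack of detection calls. Precision is set by how few arrays there are. The labelled cell type was checked against its markers, and 9 of 9 measured pluripotency genes lay above the median on both day 0 arrays. On each day 2 array 9 of 9 also did, and on each day 4 array 8 of 9. This check therefore cannot separate the stem cells from the embryoid bodies. Normalised values are on the log2 scale after background correction and quantile normalisation. The difference between the Noggin and mock arrays on a single day rests on 1 array on each side and carries no test. Contrasts over several arrays were tested with limma on the 15364 probes above the median on at least 2 arrays, with Benjamini-Hochberg adjustment over all of them. P-values measure only the spread between these arrays, which the labels do not describe as separate cultures.

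The ligand gene Bmp4 was high in day 0 cells, low at day 2, and at day 4 higher on the Noggin array than on the mock array. Its brighter probe gave signals of 714.1 with Noggin and 736.8 with mock at day 0, 207.9 against 256.2 at day 2 and 483.9 against 184.1 at day 4. The Noggin array thus regained part of the day 0 level by day 4, while the mock array did not. On the log2 scale after normalisation the mock array of day 4, at 7.05, and the Noggin array of day 2, at 7.04, stood lowest. In bulk samples such as these, fewer cells of a type and less RNA per cell cannot be told apart.

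On the log2 scale, the Noggin minus mock difference of Bmp4 was -0.098 at day 0, -0.61 at day 2 and 1.73 at day 4, the last being 3.32-fold. At day 2, 99.4% of the 12945 probes above the median on both arrays showed a smaller absolute difference, and at day 4, 99.5% of 12715 did. The dimmer Bmp4 probe was above the median on the mock array of day 0 alone. Its signals were 147.1 with Noggin and 167.8 with mock at day 0, 114.7 against 107.2 at day 2 and 128.4 against 97.4 at day 4, so it can bear little on the direction on any day. Over the 6 arrays the probes correlated with r = 0.946, a description of 6 points that share their normalisation.

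Between days, averaged over Noggin and mock, Bmp4 fell by 2.03 from day 0 to day 2 (SE 0.511; adjusted p = 0.0324 by limma), a 4.09-fold change. It fell by 2.29 on the Noggin arrays and fell by 1.78 on the mock arrays, each 1 pair of arrays. This call was lost when any array of day 0 or day 2 was left out, with limma adjusted p = 0.143 without Noggin day 0, 0.227 without mock day 0, 0.230 without Noggin day 2 and 0.0641 without mock day 2. The values then ranged from -2.75 to -1.32 and kept their sign. Between day 4 and day 0 Bmp4 differed by -1.46 (SE 0.511; adjusted p = 0.0665 by limma), and did so by -0.55 on the Noggin arrays and by -2.38 on the mock arrays. Without the filter on dim probes this difference passed, at a limma adjusted p of 0.0487. It was -2.50 without the Noggin day 4 array and -0.42 without the mock day 4 array. In these 2 fits day 4 rests on 1 array, so only the sizes are given. From day 2 to day 4 the average difference was 0.57 (SE 0.511; adjusted p = 0.452 by limma), made up of 1.74 on the Noggin arrays and -0.60 on the mock arrays. Leaving out the Noggin day 4 array turned it to -0.47, leaving out the mock day 4 array gave 1.61, and leaving out the Noggin day 2 array gave -0.14. The treatments therefore moved in opposite directions after day 2, which the additive model counts as residual spread.

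Marker lists of other cell types also changed over the same days. The summed signal of 5 measured fibroblast genes was 3430.7 with Noggin and 2593.4 with mock at day 0, 1111 against 972 at day 2 and 707.3 against 748.5 at day 4. That of 9 pluripotency genes was 39051.5 and 36814.7 at day 0, 17220.6 against 16835.3 at day 2 and 8273 against 17434.1 at day 4. That of 6 primitive streak and nascent mesoderm genes was 974 with Noggin and 1007.2 with mock at day 0, 1414.8 against 1314.7 at day 2 and 9952.6 against 2778.4 at day 4. These are sums of raw signals, which were not scaled between arrays. After normalisation, the day 2 Noggin array was lower in 7 of the 9 pluripotency genes above the median on both arrays (median -0.25). It was also lower in 3 of 3 such mesoderm genes (-0.047) and in 2 of 3 such fibroblast genes (-0.048). At day 4 the Noggin array was higher in 4 of the 5 mesoderm genes above the median on both arrays and lower in 8 of 8 such pluripotency genes. Of the fibroblast genes, 1 of 5 was above the median on each day 4 array, and of the mesoderm genes 6 of 6 were with Noggin and 5 of 6 with mock. The part of these cell types in the level of Bmp4, and in the other day 4 differences given here, was not tested.

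Bmp7 encodes a second ligand, which can pair with other BMPs. Its probe gave signals of 146.9 with Noggin and 154.6 with mock at day 0, 153.6 against 131.5 at day 2 and 232.9 against 163.1 at day 4. It was above the median on the day 4 arrays alone, and thus passed the filter through the day at which it was highest. The day 4 difference between Noggin and mock was 0.67, or 1.59-fold. On average over the treatments Bmp7 rose by 0.93 from day 2 to day 4 (SE 0.195; adjusted p = 0.0210 by limma) and by 0.73 from day 0 to day 4 (SE 0.195; adjusted p = 0.0296 by limma). Since the filter required a high day 4 level, these calls are a description and the sizes are compressed by the floor of the earlier days. The change from day 2 to day 4 no longer passed without the Noggin day 2 array (limma adjusted p = 0.155) or the mock day 2 array (0.136). The change from day 0 to day 4 no longer passed without the Noggin day 0 array (0.311), the Noggin day 2 array (0.0635) or the mock day 2 array (0.0650).

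**Figure D1:**
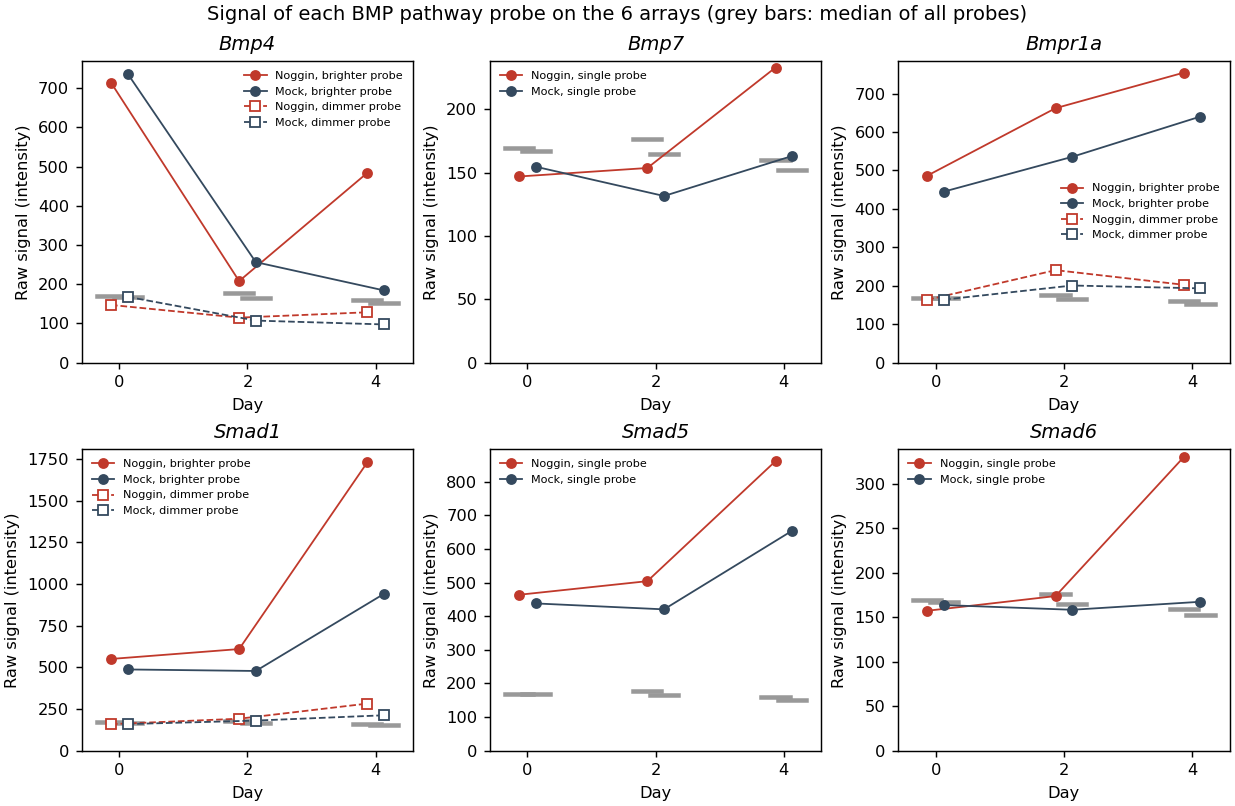
Raw signal (linear intensity, vertical axis from 0) of every member probe against day, with Noggin in red and mock in dark blue, and filled points for the brighter or single probe and open squares for the dimmer one; each point is 1 array and grey bars are the median of all probes on that array. Bmp4 drops to 207.9 with Noggin and 256.2 with mock at day 2 and reaches 483.9 with Noggin against 184.1 with mock at day 4, while Smad1 reaches 1730.8 against 941.5 and Smad6 330 against 167.4.

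The receptor gene Bmpr1a, which encodes a type I receptor that binds BMP2 and BMP4, was higher at day 4 than at day 0 in both treatments. Its brighter probe gave signals of 486.4 with Noggin and 444.9 with mock at day 0, 661.8 against 535.3 at day 2 and 754.2 against 640.1 at day 4. Both treatments stood higher on each later day, and Noggin stood above mock on each. After normalisation the Noggin minus mock difference was 0.10 at day 0, 0.094 at day 2 and 0.33 at day 4, sizes that 34.2%, 59.1% and 25.4% of all probes above the median matched or exceeded.

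From day 0 to day 4, Bmpr1a rose by 0.72 (SE 0.118; adjusted p = 0.00596 by limma), a 1.65-fold change. It rose by 0.55 at the dimmer probe (SE 0.114; adjusted p = 0.0127 by limma). From day 0 to day 2 the dimmer probe rose by 0.61 (SE 0.114; adjusted p = 0.0124 by limma), while the brighter differed by 0.36 (SE 0.118; adjusted p = 0.0692 by limma). From day 2 to day 4 neither passed, with 0.36 (SE 0.118; adjusted p = 0.0710 by limma) at the brighter probe and -0.061 (SE 0.114; adjusted p = 0.731 by limma) at the dimmer. The dimmer probe lay below the median on both day 0 arrays, with signals of 163.4 with Noggin and 163.9 with mock, so its rises from day 0 are a description. Its Noggin minus mock differences were -0.034 at day 0, 0.18 at day 2 and 0.063 at day 4. The probes correlated over the 6 arrays with r = 0.788. Without the Noggin or the mock array of day 0, the change to day 4 no longer passed at either probe, with limma adjusted p = 0.123 and 0.0702 at the brighter and 0.215 and 0.1000 at the dimmer. The dimmer probe's change to day 2 was lost without any 1 of the day 0 and day 2 arrays, with limma adjusted p between 0.0778 and 0.226. With each array left out, the brighter probe's change to day 2 ranged from 0.30 to 0.42, and its change from day 2 to day 4 from 0.25 to 0.48.

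The signal transducer genes Smad1 and Smad5 passed no test between day 2 and day 0 and were higher at day 4 in both treatments. The brighter Smad1 probe gave signals of 550.7 with Noggin and 487.7 with mock at day 0, 610.1 against 478.6 at day 2 and 1730.8 against 941.5 at day 4. Smad5 gave 463.7 with Noggin and 437.9 with mock at day 0, 504.1 against 420.3 at day 2 and 861.1 against 654.2 at day 4. For Smad5 and this Smad1 probe the day 4 arrays lay above all 4 earlier arrays, and the Noggin array lay above the mock array on every day. The dimmer Smad1 probe gave 159.6 with Noggin and 159.9 with mock at day 0, 192.1 against 180.9 at day 2 and 282.8 against 212.7 at day 4. Its normalised Noggin minus mock differences were -0.031 at day 0, -0.029 at day 2 and 0.54 at day 4, so that it was higher with Noggin at day 4 but not before.

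Smad1 rose by 1.48 from day 0 to day 4 (SE 0.216; adjusted p = 0.00421 by limma), a 2.78-fold change, and by 1.46 from day 2 to day 4 (SE 0.216; adjusted p = 0.00857 by limma). Between day 2 and day 0 it differed by 0.019 (SE 0.216; adjusted p = 0.961 by limma), with a 95% interval from -0.51 to 0.55. The dimmer Smad1 probe rose by 1.03 and by 0.71 in the same contrasts to day 4 (SE 0.169 each, limma adjusted p = 0.00606 and 0.0308), and the probes correlated with r = 0.954 over the 6 arrays. This probe was below the median on both day 0 arrays and entered the test through days 2 and 4, so its rise from day 0 is a description and no support for that of the brighter probe. Smad5 rose by 0.89 from day 0 to day 4 (SE 0.146; adjusted p = 0.00593 by limma) and by 0.90 from day 2 to day 4 (SE 0.146; adjusted p = 0.0107 by limma), a 1.86-fold change in each. Between day 2 and day 0 Smad5 differed by -0.0050, with a 95% interval from -0.36 to 0.35 (limma adjusted p = 0.986).

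The changes to day 4 were larger on the Noggin arrays. Smad1 differed between day 4 and day 2 by 1.85 on the Noggin arrays and by 1.06 on the mock arrays, and Smad5 by 1.11 and by 0.69. This is the same quantity as the gap in the Noggin minus mock difference between the days, which for Smad1 was 0.14 at day 0, 0.16 at day 2 and, by day 4, 0.95, while for Smad5 it was 0.045, 0.071 and 0.49. At day 4, 97.4% of probes differed by less than Smad1 and 87.5% by less than Smad5. Whether the rise differed between treatments could not be tested with 1 array in each group. The rises from day 0 to day 4 no longer passed without the Noggin day 0 array, with limma adjusted p = 0.0686 for Smad1, 0.104 for its dimmer probe and 0.112 for Smad5. Those from day 2 to day 4 no longer passed without the Noggin day 2 array (0.103 for Smad1, 0.231 for its dimmer probe and 0.118 for Smad5) or the mock day 2 array (0.0662, 0.116 and 0.0785). The dimmer Smad1 probe also lost its change from day 2 to day 4 without the Noggin or the mock array of day 0. Its change from day 0 to day 2, at 0.32, ranged from 0.18 to 0.47 with each array left out.

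Smad6 encodes an inhibitory SMAD that blocks the receptor and is itself switched on by BMP signalling. It gave signals of 157.3 with Noggin and 163.7 with mock at day 0, 173.8 against 158.4 at day 2 and 330 against 167.4 at day 4. The 4 earlier arrays were at or below the array median and the mock array of day 4 was just above its median of 152, so that the Noggin array of day 4 alone was well clear of it. The difference at day 4 was 1.26, or 2.39-fold, and is compressed by the floor. At day 4, 98.7% of probes differed by less. On average over the treatments, Smad6 differed by 0.92 between day 4 and day 0 (SE 0.321; adjusted p = 0.0658 by limma) and by 0.88 between day 4 and day 2 (SE 0.321; adjusted p = 0.0949 by limma), and neither passed. The first was 1.61 on the Noggin arrays and 0.23 on the mock arrays. Smad6 too passed the filter through its day 4 arrays alone.

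**Figure D2:**
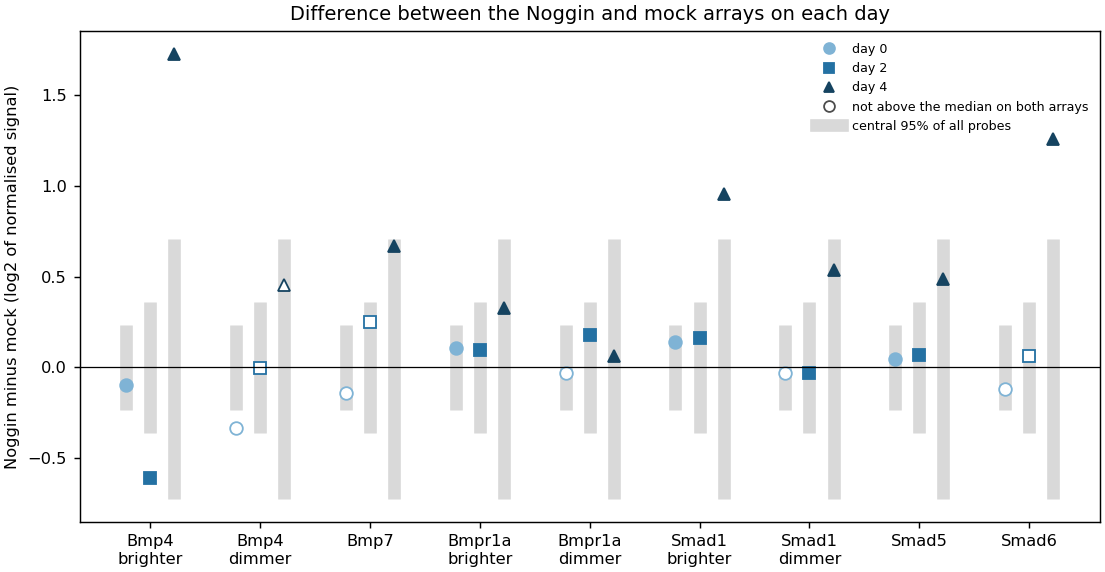
Noggin minus mock on the log2 scale (vertical axis) for the 9 member probes (horizontal axis) at day 0, day 2 and day 4, with open symbols where the probe was not above the median on both arrays and grey bars for the central 95% of all probes of that day. Among the filled symbols, the brighter Bmp4 probe at -0.61 at day 2 and 1.73 at day 4, Smad6 at 1.26 and the brighter Smad1 probe at 0.95 at day 4 lie outside the grey bars.

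Averaged over the 3 days, Noggin and mock were compared to ask which members differed in the same way throughout. Limma called 0 of the 8 tested member probes, beside 0% of all 15364 probes. At an unadjusted p under 0.05 there were 0 member probes and 468 of all probes. The averages were positive for all 8, led by Smad1 at 0.42 (SE 0.177, 95% interval -0.013 to 0.85) and Smad6 at 0.40 (SE 0.262, -0.24 to 1.04). Bmp4 averaged 0.34 (SE 0.418, -0.68 to 1.36), Bmp7 0.26 (SE 0.160), Smad5 0.20 (SE 0.119) and Bmpr1a 0.18 (SE 0.0964), each with a limma adjusted p of 0.969. In this model a difference at day 4 that is missing at day 0 counts as spread, and intervals of this width do not show that the treatments were alike. Without the day 4 arrays the Bmp4 average turned to -0.35 (limma adjusted p = 0.316).

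On single days the members were read against all probes above the median on both arrays. At day 0, 4 of the 6 measured genes could be read, and 0 differed by 2-fold or more, beside 0% of all probes. They lay between -0.098 for Bmp4 and 0.14 for Smad1, where the SD over all probes was 0.118. At day 2 the same 4 genes could be read and 0 reached 2-fold, beside 0.0695% of all probes, 0.0309% higher and 0.0386% lower. At day 4 all 6 genes could be read, and Bmp4 and Smad6 differed by 2-fold or more, both higher with Noggin, beside 2.32% of all probes in either direction, 1.16% higher and 1.16% lower. All 6 were higher with Noggin, with a median of 0.81 beside a median of 0.0086 over all probes. The number reaching 2-fold was 1 without background correction, where Smad6 stood at 0.93, and 0 when both arrays had to exceed the 75th percentile, which neither gene did. Bmp7 and Smad6 entered this count only because day 4 lifted them above the median.

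Across days, 1 of the 6 measured genes, Bmp4, was called between day 2 and day 0, and it was lower at day 2, beside 27.4% of all probes called, 14.3% higher and 13.1% lower. Between day 4 and day 0, 4 of 6 were called and all 4 were higher, namely Smad1, Smad5, Bmpr1a and Bmp7, beside 38.7% of all probes called, 19.6% higher and 19.1% lower. Between day 4 and day 2, 3 of 6 were called and all were higher, namely Smad1, Smad5 and Bmp7, beside 25.7% called, 12.8% higher and 12.9% lower. The median change from day 0 to day 4 was 0.81, beside -0.016 over all probes. With so few genes, 2 of them let in by their day 4 level, these counts describe the genes and nothing is read from them about the pathway. Leaving out the Noggin day 0 array cut the day 4 against day 0 count to 0 of 6, as it cut that of all probes to 816, beside 5952 with all arrays.

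**Figure D3:**
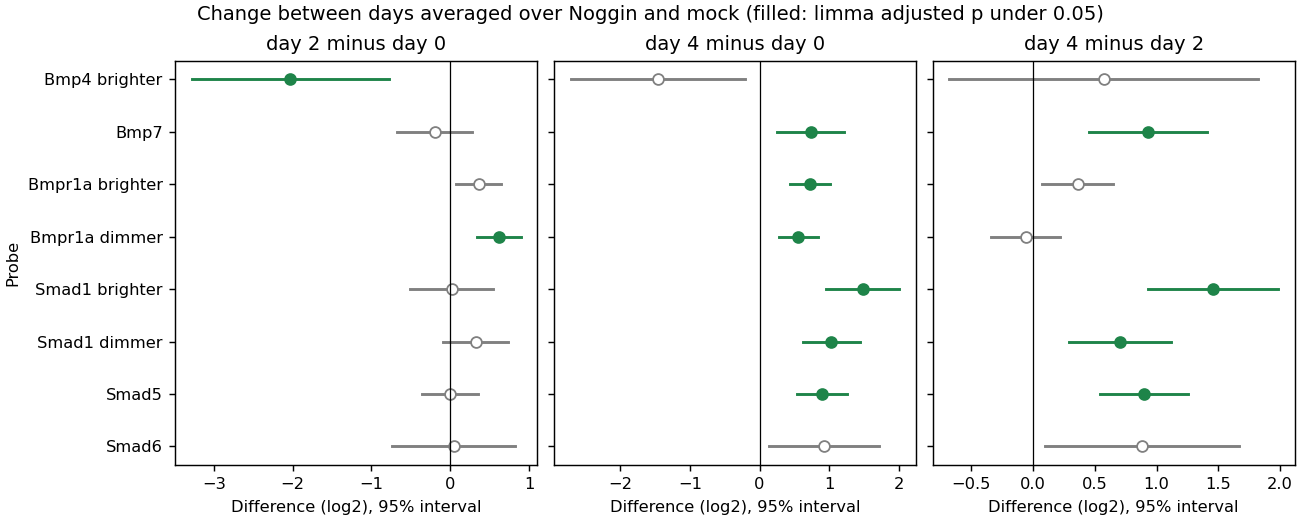
Change between days averaged over Noggin and mock (log2, horizontal axes) with its 95% interval from limma for the 8 tested member probes (rows), filled green where the adjusted p is under 0.05. Bmp4 lies left of 0 for day 2 minus day 0, at -2.03, and the Smad1, Smad5 and Bmp7 probes lie right of 0 in both contrasts that end at day 4.

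The Id genes, whose products block basic helix-loop-helix factors and which are direct targets of Smad1 and Smad5 proteins, are given first among the targets. Id1 gave signals of 362.8 with Noggin and 326.5 with mock at day 0, 530.2 against 612.4 at day 2 and 1723.3 against 1158.2 at day 4. Id3 gave 666.9 and 636.3 at day 0, 410.9 against 451.2 at day 2 and 989.8 against 692.4 at day 4. Both thus stood lower with Noggin at day 2 and higher with Noggin at day 4, the signs that Bmp4 showed on those days. Id2, with normalised Noggin minus mock differences of -0.097 at day 2 and -0.0018 at day 4, did not stand higher with Noggin at day 4. Id4 differed by -0.098 at day 2 and by -0.51 at day 4, with at least 1 array at or below the median on each of these days.

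Of 18 BMP target genes listed, 16 had a probe, Smad6 being one of them. At day 0 the 7 that could be read lay between -0.040 for Hey1 and 0.25 for Gata2, a GATA factor gene. At day 2, 8 could be read, 6 of them lower with Noggin (5 under median scaling), with a median of -0.15, beside -0.0021 over all probes. Tbx3, a T-box factor gene, was lowest at -0.73, and Cdx2, a caudal homeobox gene, highest at 0.035. At day 4, 9 could be read, 8 of them higher with Noggin, with a median of 0.73, beside 0.0086 over all probes. Tbx3 was highest at 2.36, followed by Msx1, a homeobox gene, at 2.03 and Hey1, a Hairy-related factor gene, at 1.50. Msx1 gave signals of 749.1 with Noggin and 231.6 with mock at day 4, and Tbx3 1264.2 and 302. Averaged over treatments, Id1 rose by 2.32, Msx1 by 2.42, Hey1 by 1.35, Id2 by 0.85 and Lef1, a transcription factor gene of Wnt signalling, by 0.65 from day 0 to day 4, Id4 fell by 0.84, and limma called these 6 of 12 tested (adjusted p between 0.00178 and 0.0386), beside 38.7% of all probes. Msx1 was below the median on both day 0 arrays and entered the test through later arrays, so its rise is a description. From day 0 to day 2, 3 of 12 were called, Id2 with a rise of 0.82 (limma adjusted p = 0.00644), Id4 with a fall of 1.04 (0.00793) and Tbx3 with a fall of 3.52 (0.0132), beside 27.4% of all probes. From day 2 to day 4, 4 of 12 were called, all higher, with 1.52 for Id1 (0.0109), 1.15 for Id3 (0.0177), 1.93 for Msx1 (0.0324) and 1.63 for Hey1 (0.0312), beside 25.7% of all probes.

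Among the other SMADs and intracellular modulators, 9 of 11 listed genes were tested. Smad3, a transducer of the related Nodal and activin signals, rose by 0.99 from day 0 to day 4 (SE 0.218; adjusted p = 0.0158 by limma), with signals of 876.5 with Noggin and 536.6 with mock at day 4. Smad4, the common partner of all receptor-regulated SMADs, rose by 0.38 (limma adjusted p = 0.0493), and Smurf2, a ubiquitin ligase gene, rose by 0.51 (0.0206). Ski, which encodes a SMAD corepressor, fell by 0.66 (0.0241), and Tob1, an antiproliferative gene, fell by 0.77 (0.00583). Tob1 was below the median on both day 4 arrays and entered the test through day 0 and day 2. Its fall is therefore a description and is compressed by the floor. These 5 of 9, Tob1 with the limit just given, stand beside 38.7% of all probes. From day 2 to day 4 Smad3 rose by 1.02 (0.0218) and Smad4 by 0.59 (0.0200). These were 2 of 9 called, beside 25.7% of all probes. From day 0 to day 2 limma called 0 of 9, beside 27.4% of all probes, with 1 at an unadjusted p under 0.05 (Tob1). Between Noggin and mock, the values ran from -0.21 for Smurf1 to 0.046 for Smad3 at day 0, from -0.19 for Ski to 0.11 for Smad2 at day 2, and from 0.096 for Smurf2 to 0.84 for Smad3 at day 4. At day 4 all 7 that could be read were higher with Noggin, with a median of 0.26, and 0 reached 2-fold. Median scaling in place of quantile normalisation moved the median difference of all probes to -0.057 at day 4 and 0.10 at day 2, and left 7 of these 7 higher at day 4.

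Among 8 other receptors and co-receptors, 5 were tested. Acvr1, a type I receptor gene, rose by 0.82 from day 0 to day 2 (limma adjusted p = 0.00475) and by 0.74 from day 0 to day 4 (0.00432). Acvr2b, a type II receptor gene shared with activins, rose by 0.93 from day 0 to day 4 (0.0216). Rgma, which encodes a BMP co-receptor, rose by 1.40 (0.00805), with signals of 823.3 with Noggin and 511.8 with mock at day 4, and Eng, an endothelial co-receptor gene, fell by 0.57 (0.0155). Eng was below the median on both day 4 arrays and entered the test through earlier arrays. Its fall is therefore a description and is compressed by the floor. Acvr2a passed between day 2 and day 4 alone, where it rose by 0.53 (0.0332), as Rgma did by 1.62 (0.00953). From day 0 to day 4, 3 of the 5 were called higher and 1 lower, Eng with the limit just given, beside 38.7% of all probes called. From day 0 to day 2, 1 of 5 was called, beside 27.4%, and from day 2 to day 4, 2 of 5, beside 25.7%. On the single days the extremes of this list were Rgma at 0.37 and Acvr2b at -0.22 at day 0, Acvr1 at 0.16 and Rgma at -0.29 at day 2, and Rgma at 0.82 and Acvr2a at 0.093 at day 4.

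Other antagonists split at day 4. Chrd, which encodes the BMP-binding antagonist chordin, and Cer1, which encodes an antagonist of BMP and Nodal, were strongly higher at day 4 in both treatments but lower with Noggin. Chrd gave signals of 1314.1 with Noggin and 2134.4 with mock at day 4, against 206.8 and 221.6 at day 2, and Cer1 gave 1233.8 and 2196.6 at day 4, against 132.6 and 123.9 at day 2. The day 4 differences between Noggin and mock were -0.67 for Chrd and -0.81 for Cer1. From day 0 to day 2 both fell, Chrd by 0.94 (limma adjusted p = 0.0140) and Cer1 by 1.37 (0.0131). From day 2 to day 4 Chrd rose by 3.51 (limma adjusted p = 0.000809) and Cer1 by 4.74 (0.000840). Cer1 was below the median on both day 2 arrays and entered the test through day 0 and day 4. Its fall to day 2 and rise from day 2 are therefore a description and are compressed by the floor. Fst, which encodes follistatin, an activin and BMP binder, rose by 1.62 from day 0 to day 4 (0.000836), with Noggin higher by 0.41 at day 4. Grem1, which encodes the BMP antagonist gremlin, fell by 1.69 (0.000870) and Fstl1, a follistatin-like gene, by 0.62 (0.0359), while Twsg1, a BMP-binding modulator, rose by 0.60 (0.0109). Grem1 fell between day 0 and day 2 by 1.34 (0.00221) and Fstl1 by 1.78 (0.00212), and Fstl1 then rose by 1.16 (0.00917). Grem1 was above the median on the day 0 arrays alone and entered the test through the day at which it was high, so its falls are a description and are compressed by the floor. Grem1 and Fstl1 are also expressed by fibroblasts. From day 0 to day 2 limma called 3 of the 3 tested fibroblast markers lower, beside 13.1% of all probes. From day 2 to day 4 these 3 markers were again lower (median -0.38), while Fstl1 rose. The part of fibroblasts in these changes was not tested. Of 18 genes listed 7 were tested, and the 6 named were called from day 0 to day 4, Grem1 with the limit just given, beside 38.7% of all probes.

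The other BMP-family ligands were mostly not measurable. Of 13 listed, 7 had a probe and 2 were tested. Gdf3, a family ligand of pluripotent cells, gave signals of 282.9 with Noggin and 1049.9 with mock at day 4, a difference of -2.12, and fell by 2.68 from day 0 to day 4 (limma adjusted p = 0.00890) and by 2.01 from day 2 to day 4 (0.0326). Its direction was opposite to that of Bmp4 at day 4. Bmp1, which encodes a protease rather than a ligand, differed by 0.37 at day 0 and 0.21 at day 4, near the median throughout, and rose by 0.40 from day 2 to day 4 (0.0448). Bmp1 was below the median on both day 2 arrays and entered the test through day 0 and day 4, so this rise is a description.

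**Figure D4:**
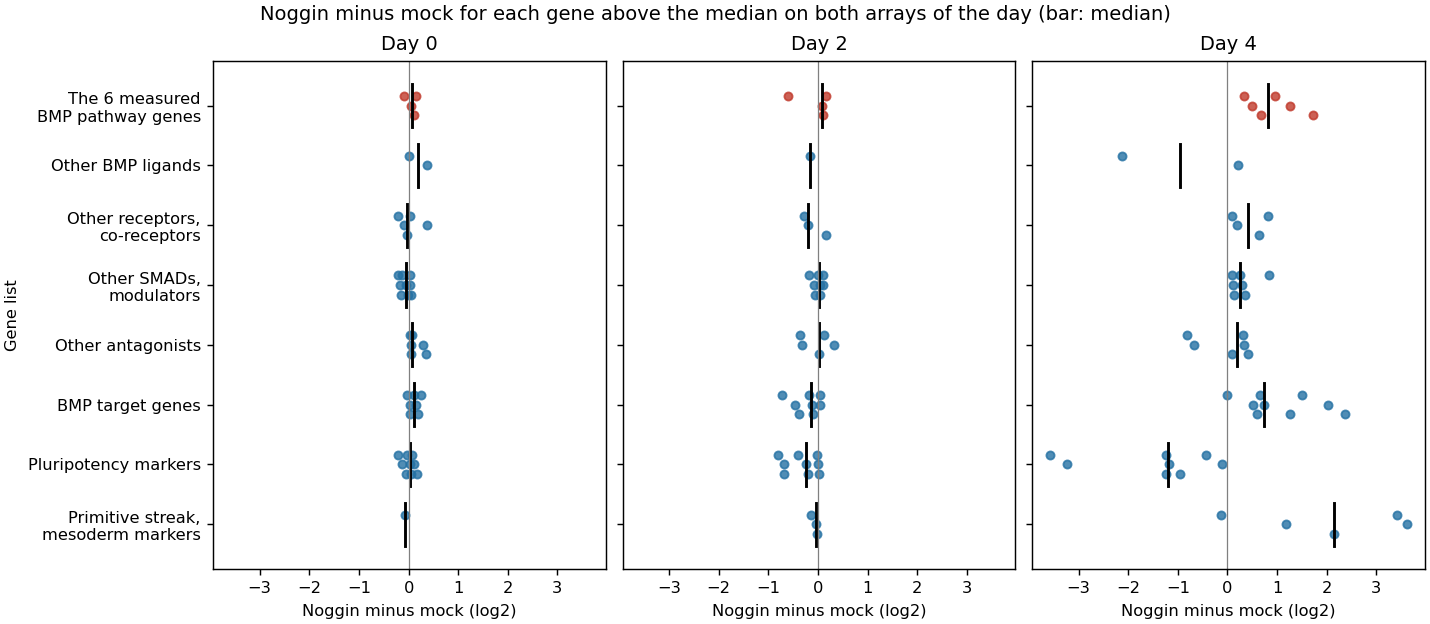
Noggin minus mock on the log2 scale (horizontal axes) at day 0, day 2 and day 4 for genes above the median on both arrays, in red for the 6 measured members and in blue for the other lists (rows), with a black bar at each median. Points gather near 0 at day 0, and at day 4 the members' median is 0.81, that of BMP targets 0.73, that of pluripotency markers -1.20 and that of streak and mesoderm markers 2.14.

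The genes whose pattern over the 6 arrays was most like each member were ranked by Pearson correlation among 2825 probes that passed the filter and spanned at least 1 on the log2 scale. For Bmp4 they were Hspg2 (r = 0.990), Plpp3 (0.983) and Emp3 (0.982), and for Bmp7 Itgb5, Khnyn and Phldb2 (0.994, 0.994 and 0.993). Smad1 was most like Smad5 (0.998), followed by Mogat2 (0.997) and Fhdc1 (0.997), and Smad5 most like Gm1673, Vopp1 and Zfand3 (0.999, 0.999 and 0.998). Smad6 was most like Crb2, Igfbp4 and Klhl6 (0.999, 0.996 and 0.995). With 6 arrays these are descriptions, and the arrays share their normalisation. Bmpr1a spanned less than 1 and was not ranked.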

How the data were processed

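Total RNA of 6 mouse samples was labelled as biotinylated cRNA and read on Illumina Mouse-6 bead arrays, per the labels. The deposited intensity values of each array were not scaled between arrays and not background-subtracted, as read from the values. The deposited value table holds log2 values that the authors had quantile-normalised, since every column has the same quantiles; the scanner software is not given in the sources used here. No detection values came with the intensities.

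The probes were linked to the value table, and so to gene symbols, by equality of the 6 normalised log2 values within 0.006, which linked 27491 of 27496 probes. Of these, 2220 of 2220 with a clone accession on both sides had the same accession. In all, 19419 probes had 1 symbol, 6 had several and 8071 had none.

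The intensities were background-corrected (normexp, offset 50), log2-transformed and quantile-normalised with limma 3.58.1 in R 4.3.3. Probes that exceeded the median of the array on 2 or more arrays were fitted with an additive model of day and treatment, with a threshold of 0.05 on Benjamini-Hochberg adjusted p. A gene is represented by its brightest probe, and every member probe is reported. The fit was run on simulated data with changes alike on all days or in both treatments. That run does not bear on differences confined to 1 treatment on 1 day. Single-day differences rest on 1 array per group and have no test.

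The members and lists were chosen with earlier results of these data known. The named genes are all members, the Id genes, each listed gene that passed in a contrast, and the highest and lowest of each list on each day. Markers of pluripotent cells, streak and mesoderm, fibroblasts, endoderm, trophoblast, neuroectoderm and blood were also listed. The alternatives were no background correction, the authors' values, median scaling, an offset of 16, no filter, a filter at the 75th percentile, any probe of a gene, models without day or treatment, and arrays left out. Promoter sequences come from RefSeq on GRCm38.p6.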

Additional observations from a re-analysis of the deposited data

Results flagged for a closer look

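The Noggin minus mock difference of the brighter Bmp4 probe had opposite signs on consecutive sampling days. It was -0.61 at day 2 and 1.73 at day 4 on the log2 scale, each beyond 0.5 in size. At the dimmer probe, not above the median on both arrays of either day, it was -0.00074 and 0.46. Each value rests on 1 array per group, and the difference between the days was not tested.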

How the results depend on the processing

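With 1 array in each group, the number of arrays limits every value, and when an array is left out the lone array of that day is assumed to vary like the others. Members called between day 2 and day 0 were 1, and 2 with any probe of the gene; they ranged from 0 to 2 with each array left out. The range was 0 to 4 for day 4 against day 0 and 0 to 4 for day 4 against day 2. The count of all probes moved with it, over 293 to 7938, 816 to 8109 and 107 to 6909 in the same order, beside 4207, 5952 and 3954 with all arrays. Members 2-fold apart at day 4 were 2, and 1 without background correction, 1 in the authors' values and 0 with the filter at the 75th percentile. That filter gave 2718, 3725 and 2562 called probes between days and 135 (295 without it) 2-fold apart at day 4. Without the arrays of day 4, 6 probes were called between Noggin and mock, beside 0. All probes 2-fold apart were 5 at day 2 without background correction, beside 9, and 1 at day 0 with offset 16, beside 0.

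Directions turned for Bmp4 and the dimmer Smad1 probe between Noggin and mock without day 4 (-0.35 and -0.030), and for Smad5 between day 2 and day 0 under median scaling (0.038). With each array left out, differences between day 2 and day 0 that were small to begin with took either sign, from -0.50 to 0.10 for Bmp7, -0.19 to 0.23 for Smad1, -0.12 to 0.11 for Smad5 and -0.35 to 0.43 for Smad6. Between day 4 and day 2 they ran from -0.47 to 1.61 for Bmp4 and -0.14 to 0.021 for the dimmer Bmpr1a probe. The cause was not tested. No paired analysis by replicate number was possible because the labels give none; the comparison of Noggin with mock already has day as a term and so compares them within days.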

Other observations

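Markers of other cell types were summed on each array as raw signals, which were not scaled between arrays. For 8 measured primitive and visceral endoderm genes the summed signal was 1790.1 with Noggin and 1662.5 with mock at day 0, 1836.2 against 1668.2 at day 2 and 3955 against 3053 at day 4. After normalisation, 3 of the 4 endoderm genes that could be read at day 2 were lower with Noggin and 1 was higher. Of the 6 endoderm genes that could be read at day 4, 3 were higher with Noggin and 3 lower, led by Gata4 at 0.96 and Gata6 at 0.71, with Dab2 lowest at -0.34. From day 0 to day 4, limma called 4 of the 6 tested endoderm genes, all higher, beside 38.7% of all probes. Foxa2, 1 of the 4, was above the median on the day 4 arrays alone and so entered the test through them. For 6 blood and endothelium genes the sum was 1336.3 with Noggin and 1363.5 with mock at day 0, 1780.9 against 1377.2 at day 2 and 3825.9 against 2086 at day 4. At day 4, 2 of the 6 could be read, Tal1 at 1.91 and Etv2 at 1.10, both higher with Noggin. Pecam1, not above the median on both arrays, had signals of 124.1 with Noggin and 196.6 with mock.

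For 4 trophoblast genes the sum was 4242.3 with Noggin and 4203.5 with mock at day 0, 1033 against 1170.9 at day 2 and 1475.6 against 2169.6 at day 4. At day 2, 2 of the 3 that could be read were higher with Noggin, Krt7 by 0.30 and Cdx2 by 0.035, while Tfap2c differed by -0.79. At day 4 Cdx2 was higher by 0.73, while Krt7 differed by -0.48 and Tfap2c by -1.18. For 4 neuroectoderm genes the sum was 586.2 with Noggin and 602.7 with mock at day 0, 640.6 against 593.2 at day 2 and 642.2 against 697.4 at day 4, with at most 1 gene above the array median on any array. The part of these cell types in the levels of the BMP pathway genes was not tested.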
